A study of Mus musculus with 2 samples.

Results

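The BMP and TGF-β module is the set of genes for the secreted ligands of the TGF-β superfamily, their receptors, the extracellular antagonists, the Smad proteins and the Id genes. Its members were taken by matching gene symbols, a rule that uses no measured value but was written with earlier results of these data known. Of 16302 genes listed in at least one library, 66 were members, 65 of them listed in WT and 65 in β-arr1 KO. They comprised 23 ligands, 12 receptors, 11 antagonists, 10 genes for Smads and Smurf ubiquitin ligases, 4 Id genes, 4 latent TGF-β binding proteins and 2 genes outside these classes, Bmp1 and Bmp2k.

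RNA was taken from astrocytes grown from the adult dentate gyrus (DG) of the hippocampus, from WT and from β-arr1 KO mice, all on a C57BL/6 background. The knockout is a germline one and not specific to astrocytes, the mice came from heterozygous crosses or from separately bred lines, and the cultures grew in medium with serum and were shaken to detach dividing cells, oligodendrocyte progenitors and neurons. A single library of pooled cDNA was sequenced per genotype, so no comparison below has a replicate check or a p-value. Levels are given in FPKM, in which fragments are divided by the length of the transcript and by the size of the library.

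Most ligands of this superfamily, though not all, bind pairs of type I and type II receptor kinases. BMPs and some GDFs signal through Smad1, Smad5 and Smad9, whereas TGF-βs and activins signal through Smad2 and Smad3, and both branches share Smad4. Secreted antagonists such as noggin, chordin and gremlin hold BMPs away from their receptors, Smad6 and Smad7 damp the signal inside the cell, and the Id genes are direct transcriptional targets of BMP Smads. In the adult hippocampus, BMP signalling keeps neural stem cells quiescent and astrocytes are one source of the ligands.

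Both libraries were similar in depth, at an estimated 9.38 M mapped fragments in WT and 9.52 M in KO. Arrb1, the gene of β-arr1, fell from 7.62 to 2.72 FPKM in KO. Values of a pair are given in the order WT, KO. All 10 astrocyte markers were above 1 FPKM in both libraries, Gfap at 189 and 192 FPKM. Markers of other cells were present as well. All 8 microglial markers were above 1 FPKM and summed to 497 and 391 FPKM, and of 10 fibroblast and mural markers 8 and 7 were above 1 FPKM, summing to 6040 and 5430 FPKM. Tagln (2920 and 2600 FPKM) and Acta2 made up most of the fibroblast and mural sums. Within this last list the collagens were lower in KO, Col1a1 at 420 and 237 FPKM, Col1a2 at 92.3 and 34.3 FPKM and Col3a1 at 88.3 and 43.3 FPKM, while Acta2 was at 2480 and 2470 FPKM, Des was higher at 29.7 and 41.9 FPKM, and Pdgfrb was listed in neither library. Oligodendrocyte lineage markers summed to 85.5 and 127 FPKM, endothelial markers to 58.1 and 50.9 FPKM, and neuronal markers to 45.4 and 60.7 FPKM, nearly all of it Tubb3, while the neuronal Rbfox3 was at 0.0743 and 0.108 FPKM and Map2 was not listed. Genes of the Y chromosome differed between the libraries, with 4 listed in KO (8.44 FPKM in sum) and none of these in WT. The sexes of the mice are not in the labels, so sex and genotype cannot be told apart.

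Of the 66 members, 52 reached 1 FPKM in at least one library and were analysed, all of them listed in both. The limits for a change were a KO-to-WT ratio of 3/2 and of 2/3. Of the 52 members, 3 rose, Gdf6 and Grem1 among them, and 4 fell, Chrd, Gdf15, Tgfbr3 and Inhbb. The 7 genes are 13.5% of the 52 members, beside 17.8% of all 12646 genes analysed and 14.6% of those listed in both libraries. With 1 FPKM required in both libraries the shares were 13.5% of members and 11.8% of all genes, so that the order of the shares turned with the genes included. Among all 12646 genes, 9.56% were above 3/2 and 8.28% were below 2/3. The median log2 ratio over the 52 members, with 0.1 FPKM added to both values, was 0.00, and that over all genes was 0.02. Fragments were estimated for each gene, and a 95% interval of its ratio was computed from them that holds counting error alone. It left out 1 for 28 members (53.8%), beside 40.5% of the 11841 genes for which an interval was computed. Of the 28 members 16 were higher and 12 lower in KO, beside 2633 (22.2%) and 2165 (18.3%) of those 11841 genes. Such intervals are narrower for genes with more fragments, and the shares were not matched for level. At least 5 FPKM in either library was reached by 45 of the 52 members and 9397 of the 12646 genes. In bulk RNA, fewer cells of a type and less RNA per cell cannot be told apart, for these and for all values that follow.

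**Figure D1:**
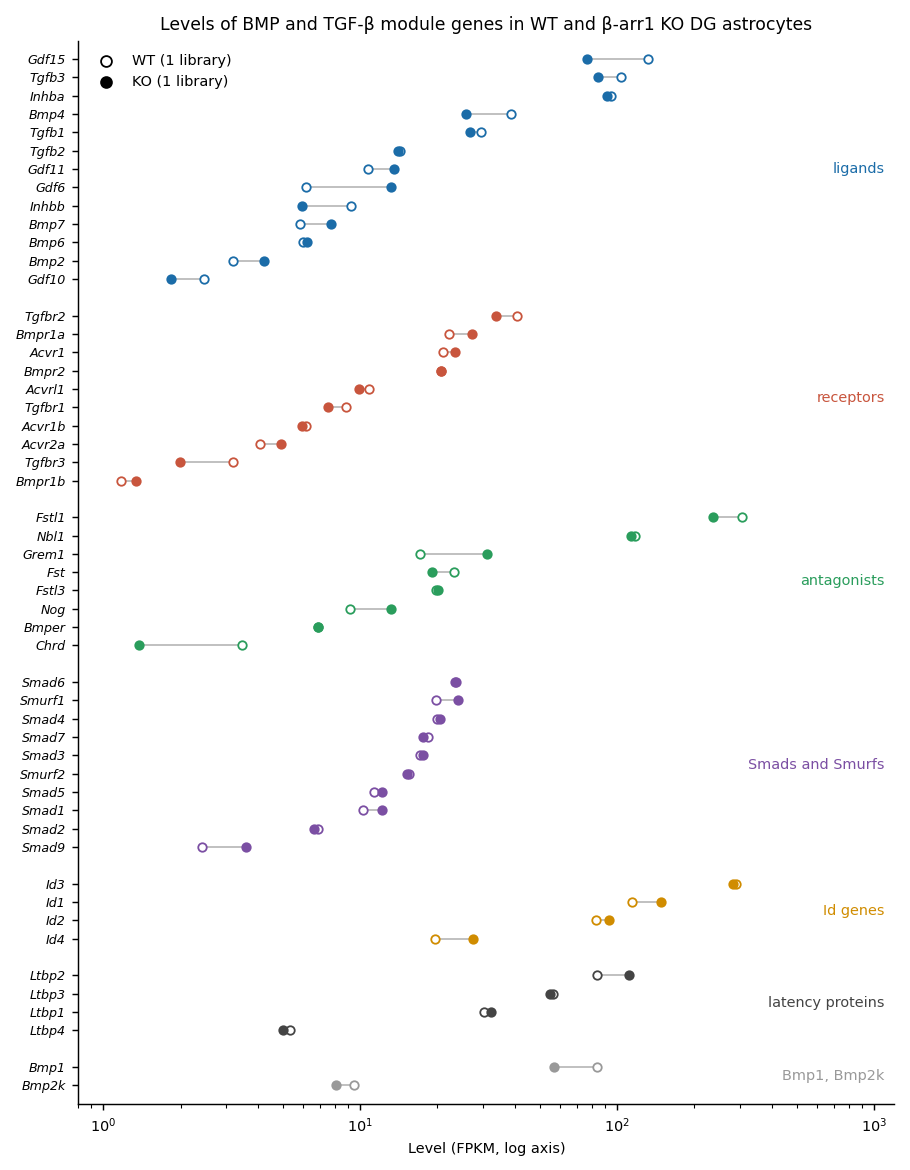
Level of 51 analysed members in FPKM (log axis) in the WT library (open circles) and the KO library (filled circles), 1 library each, grouped by class and ordered by mean level. Fstl1 (305 and 236 FPKM) and Id3 (290.0 and 283 FPKM) stand highest, and the Smads range from 2.43 to 23.6 FPKM.

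Of 23 ligand genes, 13 were analysed, and 1 rose, 2 fell and 10 lay within the limits. Their median log2 ratio was -0.05. The most abundant ligand mRNAs were those of Gdf15, a stress-induced member of the superfamily, of Tgfb3 and of Inhba, which encodes the activin βA subunit. Gdf15 (chromosome 8 of mm9, 73153293 to 73155534) fell from 131 to 76.3 FPKM (log2 ratio -0.78). It rested on about 1670 and 1021 fragments, and the interval of the ratio, 0.537 to 0.628, stayed below 2/3.

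The BMP-type ligands did not move together. Gdf6, a BMP family ligand known from joint and eye development, lies on chromosome 4 from 9771519 to 9789492. It rose from 6.14 FPKM to 13.2 FPKM, a ratio of 2.14 that was the highest of the 52 members (interval, 1.80 to 2.56). Bmp4 was the most abundant of the classical BMPs, at 38.7 and 25.9 FPKM. The ratio, 0.669, was on the lower limit, and its interval of 0.594 to 0.753 included 2/3. Bmp7 was at 5.82 and 7.70 FPKM and Bmp2 at 3.21 and 4.22 FPKM, with ratios of 1.32 and 1.31 within the limits. Both intervals lay above 1 and reached beyond 3/2. That of Bmp7 ran from 1.09 to 1.60, and that of Bmp2 from 1.01 to 1.71, on about 101 and 137 fragments. The paper on these data reports raised Bmp2 mRNA in KO astrocytes by RNA-seq and by qRT-PCR. It also reports more BMP2 protein in medium from the KO astrocytes, by ELISA. Bmp6, at 5.99 and 6.23 FPKM, had an interval that included 1 (0.844 to 1.28). Bmp4 thus made up 72.0% of the summed level of Bmp2, Bmp4, Bmp6 and Bmp7 in WT and 58.8% in KO. Of the fibroblast and mural markers, 8 were lower in KO, like Bmp4, among them the collagens, and Des was higher. The 8 include Acta2, nearly equal at 2480 and 2470 FPKM, and Lum, listed in WT only at 0.66 FPKM. Among all 12646 genes analysed, 5938 had a ratio below 1. The part of these markers in the value of Bmp4 was not tested.

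Among the TGF-βs, Tgfb3 accounted for 70.2% of the summed level in WT and 67.3% in KO. The values of Tgfb3 were 103 and 84.3 FPKM, with a ratio of 0.817 (0.775 to 0.861). Tgfb1 (29.4 and 26.8 FPKM) and Tgfb2 (14.3 and 14.1 FPKM) had intervals that included 1. The activin subunits differed from each other. Inhba stayed at 94.7 and 91.6 FPKM (interval, 0.902 to 1.04), while Inhbb, the βB subunit, fell from 9.18 to 5.94 FPKM (ratio 0.647; interval, 0.546 to 0.766). With a pseudocount of 1 FPKM the ratio of Inhbb was 0.682, within the limits. Gdf11, a ligand of the activin branch, was at 10.7 and 13.6 FPKM (ratio 1.27; interval, 1.11 to 1.45). Gdf10, also called BMP3b, was low at 2.46 and 1.83 FPKM, and no difference was detectable at its 82 and 63 fragments.

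Of 12 receptor genes, 10 were analysed, 9 of which lay within the limits, from 0.828 to 1.22. The exception was Tgfbr3, which encodes betaglycan, a co-receptor that presents TGF-β2 and inhibin. On chromosome 5 from 107535589 to 107718614, it fell from 3.21 to 1.99 FPKM (log2 ratio -0.69). The interval of its ratio, 0.486 to 0.790, reached above 2/3, and with a pseudocount of 1 FPKM the ratio was 0.710, within the limits. The signalling TGF-β receptors were both somewhat lower in KO. Tgfbr2, the type II receptor and the most abundant receptor mRNA, was at 40.8 and 33.8 FPKM (ratio 0.828; interval, 0.785 to 0.873), and Tgfbr1, the type I receptor, was at 8.83 and 7.49 FPKM (ratio 0.848; interval, 0.740 to 0.972).

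Among the BMP receptors no gene passed the limits. Bmpr1a, a BMP type I receptor, was at 22.3 and 27.3 FPKM (ratio 1.22; interval, 1.13 to 1.32). Bmpr1b was low, at 1.18 and 1.34 FPKM, so that Bmpr1a stood above it in both libraries. Acvr1, a type I receptor for BMPs also called ALK2, was at 21.0 and 23.5 FPKM. The type II receptor Bmpr2 was at 20.7 and 20.6 FPKM, with a ratio of 0.993 (interval, 0.890 to 1.11). Acvrl1 (ALK1, a receptor for BMP9 that is known from endothelium) was at 10.8 and 9.92 FPKM. The activin receptors Acvr1b (6.18 and 5.95 FPKM) and Acvr2a (4.09 and 4.92 FPKM) had intervals that included 1, and the end of the Acvr2a row overlapped that of Orc4 in both tables.

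**Figure D2:**
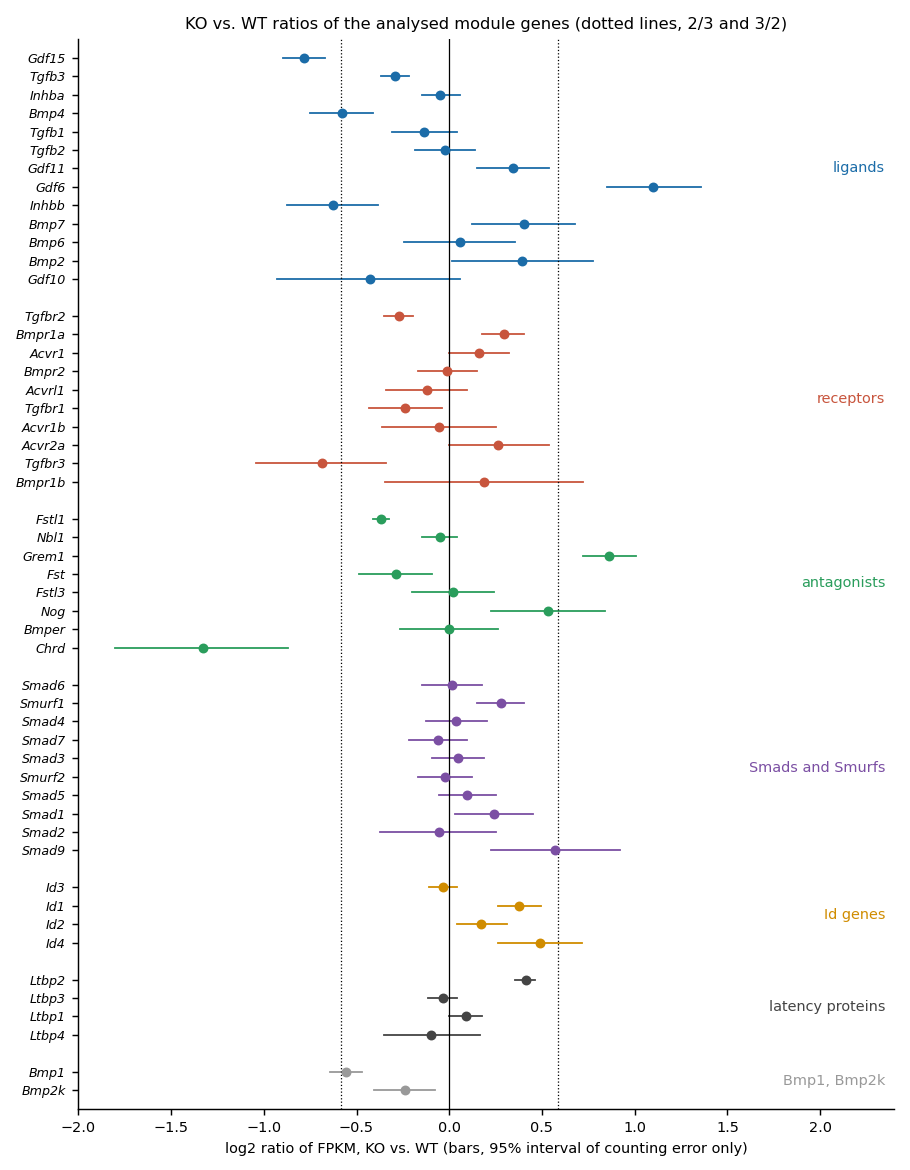
log2 ratio of KO vs. WT for 51 analysed members by class (points), with 95% intervals of counting error (bars) and the limits of 2/3 and 3/2 (dotted lines). Gdf6 and Grem1 lie to the right of 3/2, and Chrd, Gdf15, Tgfbr3 and Inhbb to the left of 2/3, while all Smads, Smurfs, Id genes and latency proteins lie between the lines.

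The antagonists held 9 analysed genes, of which 2 rose, 1 fell and 6 lay within the limits. The median log2 ratio of the class was 0.00, with changes in both directions. Grem1, which encodes a secreted cystine-knot protein that binds BMP2, BMP4 and BMP7, rose from 17.1 to 31.0 FPKM. The interval of its ratio of 1.82 ran from 1.65 to 2.01, on about 633 and 1184 fragments, and lay wholly above 3/2. The Grem1 row on chromosome 2 ran from 113588832 (WT) or 113588546 (KO) to 113598805. Nog, which encodes noggin, was at 9.09 and 13.1 FPKM, a ratio of 1.44 just below the limit (interval, 1.17 to 1.79).

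Chrd, which encodes chordin, went the other way. It fell from 3.46 to 1.38 FPKM, a ratio of 0.398 that was the lowest of the 52 members (interval, 0.287 to 0.548, from 137 and 56 fragments). The row of Chrd lies on chromosome 16 and ends at 20742457 in both tables. Bmp1, a metalloprotease that cleaves chordin and procollagens and is no ligand despite its name, was at 83.7 and 56.9 FPKM (ratio 0.680; interval, 0.641 to 0.721). Follistatin, the product of Fst, binds activins and some BMPs. Of Fst and the follistatin-like genes, Fstl1, which encodes a secreted glycoprotein, was the highest. It was also the most abundant mRNA of the antagonist class, at 305 and 236 FPKM (ratio 0.776). Fst, follistatin itself, was at 23.2 and 19.0 FPKM (ratio 0.819; interval, 0.715 to 0.938), and Fstl3 was at 19.8 and 20.1 FPKM. Nbl1, a relative of Grem1 also called DAN, was abundant at 117 and 113 FPKM, with an interval that included 1. Bmper was at 6.87 FPKM in both libraries.

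The proximal upstream sequences of Grem1 and Chrd are shown because these antagonists moved furthest in opposite directions. Each run is the 250 bases before the RefSeq start of the gene in GRCm38.p6, a later build than the mm9 of the expression tables, from chr2:113758649-113758898 on the minus strand and chr16:20732877-20733126 on the plus strand. Capitals mark GGCGCC, a GC-rich element that BMP Smads can bind, and GTCTG, which contains the Smad box and reads CAGAC on the other strand.
Grem1: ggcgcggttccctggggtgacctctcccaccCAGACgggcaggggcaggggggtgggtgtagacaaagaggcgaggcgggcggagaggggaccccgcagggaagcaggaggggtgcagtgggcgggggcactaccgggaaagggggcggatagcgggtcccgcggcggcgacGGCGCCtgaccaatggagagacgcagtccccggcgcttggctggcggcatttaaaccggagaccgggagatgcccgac
Chrd: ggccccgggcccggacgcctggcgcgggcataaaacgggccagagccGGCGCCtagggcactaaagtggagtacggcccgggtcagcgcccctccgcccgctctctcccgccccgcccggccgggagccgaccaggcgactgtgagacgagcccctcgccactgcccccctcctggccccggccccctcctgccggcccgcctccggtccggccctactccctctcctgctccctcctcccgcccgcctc
Both windows held GGCGCC 1 time, at 78 bases before the start of Grem1 and at 203 bases before that of Chrd, counted from the first base of the match. GTCTG was found 1 time before Grem1 and was not among the letters of the Chrd window. Such windows were given for 48 of the 66 members (59 windows). GGCGCC was present in 23.7% of these and in 9.59% of all 32817 windows of the table, and GTCTG in 47.5% and 42.2%. Repeated windows were dropped from the count of all windows but not from that of members. The shares were not matched for base composition, so they do not show an excess of either element as such. The search covered both strands, the 2 motifs can share a base but did not do so here, and a match of letters does not show binding.

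The balance of BMP ligands and antagonists was then summed, in groups chosen after the values had been seen. Bmp2, Bmp4, Bmp6 and Bmp7 summed to 53.7 and 44.0 FPKM (ratio 0.820). With Gdf6 the sums were 59.8 and 57.2 FPKM (ratio 0.956). Gdf6 was higher and Bmp4 lower within these sums. Nog, Chrd and Grem1 summed to 29.6 and 45.6 FPKM (ratio 1.54), and Grem1 made up 57.6% and 68.1% of these sums. These values depended on the genes taken. With Nbl1 the antagonist sums were 146 and 158 FPKM, and their ratio was 1.08. Nog, Chrd and Grem1 together stood at 0.551 and 1.03 times the 4 BMPs, and at 0.495 and 0.797 times the ligands with Gdf6. These are mRNA levels per transcript length and hold no information on secreted protein.

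**Figure D3:**
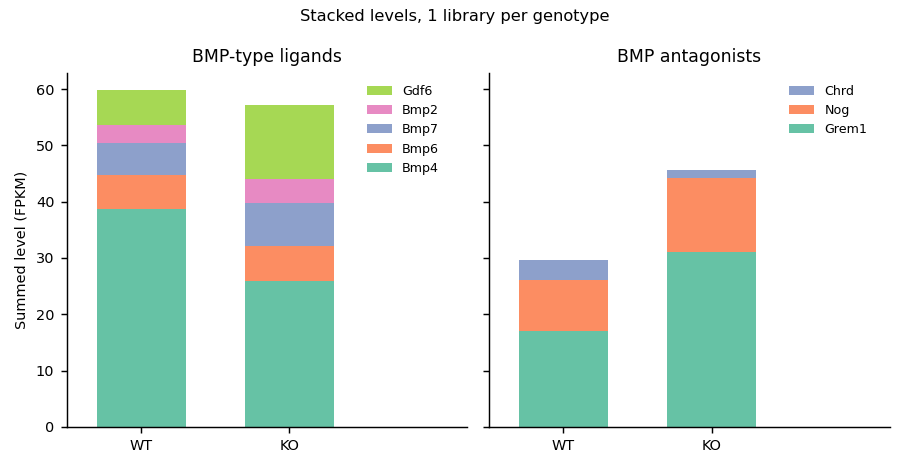
Stacked levels in FPKM of BMP-type ligands (left) and BMP antagonists (Nog, Chrd and Grem1, right) in the WT and KO libraries, 1 library per genotype and no error bars. Ligands including Gdf6 sum to 59.8 and 57.2 FPKM, and antagonists to 29.6 and 45.6 FPKM, with Grem1 the tallest part of the antagonist bars.

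No Smad or Smurf gene passed the limits. All 10 were analysed, with ratios from 0.958 to 1.48 and a median log2 ratio of 0.04. The common mediator Smad4 was at 19.9 and 20.5 FPKM (interval of the ratio, 0.916 to 1.15). Of the TGF-β branch, Smad3 was at 17.1 and 17.6 FPKM and Smad2 at 6.86 and 6.59 FPKM, both with intervals that included 1. Of the BMP branch, Smad5 was at 11.3 and 12.1 FPKM (interval, 0.961 to 1.19), Smad1 at 10.3 and 12.2 FPKM (ratio 1.18; interval, 1.02 to 1.37) and Smad9 at 2.43 and 3.61 FPKM. The ratio of Smad9, 1.48, was the highest of the class, and its interval of 1.17 to 1.89 reached beyond 3/2. Summed by branch, Smad1, Smad5 and Smad9 came to 24.1 and 27.9 FPKM (ratio 1.16), and Smad2 and Smad3 to 23.9 and 24.2 FPKM (ratio 1.01). Both branches were therefore present at like mRNA levels in WT.

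The inhibitory Smads, which are induced by the pathway they restrain, were at 23.3 and 23.6 FPKM for Smad6 and at 18.3 and 17.6 FPKM for Smad7. Their ratios of 1.01 and 0.958 had intervals that included 1. Of the Smurfs, which mark Smads and receptors for degradation, Smurf1 was at 19.7 and 24.0 FPKM (ratio 1.21; interval, 1.11 to 1.32) and Smurf2 at 15.5 and 15.3 FPKM.

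The 4 Id genes encode helix-loop-helix proteins that lack a DNA-binding region and hold back differentiation factors. None passed the limits, and 3 of the 4 had intervals above 1. Id3 was among the most abundant mRNAs of the libraries, at 290.0 and 283 FPKM, higher than 99.1% of listed genes in both. Its ratio of 0.977 had an interval of 0.928 to 1.03. Id1 was at 115 and 149 FPKM (ratio 1.30; interval, 1.20 to 1.41), and Id2 was at 82.5 and 93.1 FPKM (ratio 1.13; interval, 1.03 to 1.24). Id4, which astrocytes and neural stem cells express, was at 19.6 and 27.5 FPKM, a log2 ratio of 0.49 (interval of the ratio, 1.20 to 1.64). The median log2 ratio of the class, 0.27, was the highest of the classes and stands beside 0.02 for all genes, but it rests on 4 genes. In sum the Id genes were at 507 and 552 FPKM, a ratio of 1.09, because Id3 made up 57.2% of the sum in WT. Of the 10 astrocyte markers, 9 were also higher in KO, such as Aqp4 at 7.05 and 13.5 FPKM, and Gja1 was lower at 34.0 and 29.4 FPKM. Their sums of 3540 and 4100 FPKM were mostly Vim (3220 and 3740 FPKM). Of the 6 precursor and cycling markers, summing to 202 and 250 FPKM, 4 were higher, such as Sox2 at 24.4 and 38.8 FPKM, and Mki67 and Mcm2 were lower. The part of either list in the Id values was not tested.

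The upstream windows of Id3 and Id4, the Id genes with the lowest and the highest ratio, are shown in the same way. They lie on the plus strand at chr4:136143572-136143821 and chr13:48260866-48261115 of GRCm38.p6.
Id3: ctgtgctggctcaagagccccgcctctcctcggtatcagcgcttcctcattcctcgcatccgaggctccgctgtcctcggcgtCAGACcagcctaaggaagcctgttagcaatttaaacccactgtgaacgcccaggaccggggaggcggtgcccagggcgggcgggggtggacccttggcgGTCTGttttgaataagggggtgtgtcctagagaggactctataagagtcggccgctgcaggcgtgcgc
Id4: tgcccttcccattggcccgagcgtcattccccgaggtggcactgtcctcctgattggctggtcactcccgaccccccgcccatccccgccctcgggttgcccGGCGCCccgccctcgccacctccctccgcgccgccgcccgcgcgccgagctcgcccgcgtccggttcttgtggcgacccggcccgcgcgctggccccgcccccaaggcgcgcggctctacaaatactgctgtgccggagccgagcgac
The Id3 window held GTCTG 2 times, at 68 and 167 bases before the start, and no GGCGCC. The Id4 window held GGCGCC 1 time, at 148 bases before the start, and no GTCTG. Elements further upstream lie outside these windows.

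Latent TGF-β binding proteins tether inactive TGF-β to the extracellular matrix. Ltbp2, the member that does not bind TGF-β itself, was at 83.7 and 111 FPKM (ratio 1.33; interval, 1.28 to 1.38). Ltbp3 (56.2 and 54.9 FPKM), Ltbp1 (30.3 and 32.2 FPKM) and Ltbp4 (5.35 and 5.005 FPKM) had intervals that included 1. Bmp2k, a kinase named for its induction by BMP2, was at 9.50 and 8.04 FPKM. Its row overlapped a row of Paqr3, at 2.62 FPKM, in the KO table only. Summed, the pair was at 9.50 and 10.7 FPKM, which turned the ratio from 0.846 to 1.12.

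The other 14 members stayed below 1 FPKM in both libraries. They were the ligands Bmp3, Bmp5, Bmp8a, Bmp8b, Bmp15, Gdf3, Gdf5, Gdf7, Gdf9 and Inhbc, the receptors Acvr1c and Acvr2b, and Fstl4 and Fstl5. Their listed values ran from 0.0123 FPKM for Acvr1c in WT to 0.959 FPKM for Acvr2b in WT. Acvr2b, a type II activin receptor, was at 0.466 FPKM in KO, but its 14 and 7 fragments left an interval of 0.166 to 1.29. Gdf7 was listed in WT only, at 0.341 FPKM, and Inhbc in KO only, at 0.0567 FPKM. For each of the 12 genes listed in both libraries the interval included 1, and this depth could not show a difference.

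**Figure D4:**
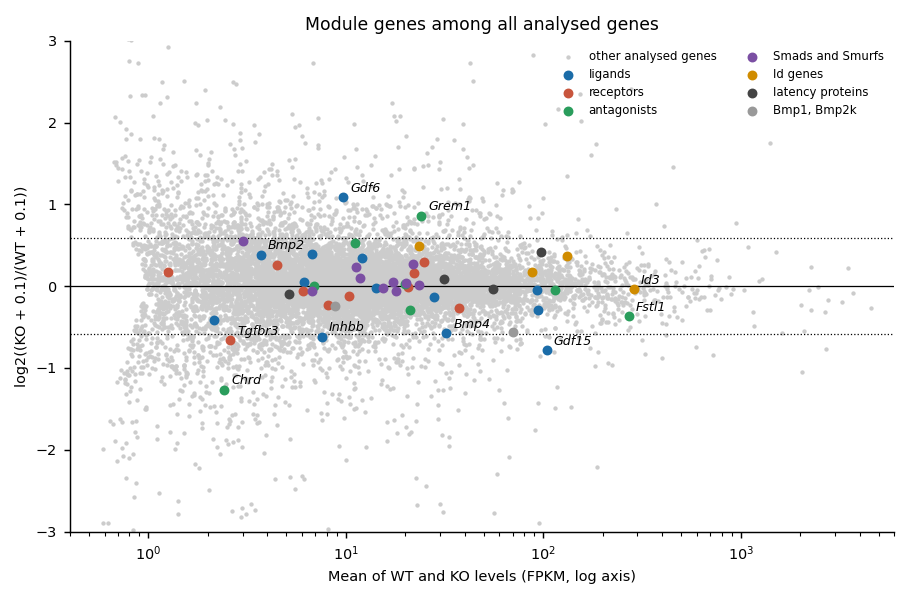
log2((KO + 0.1)/(WT + 0.1)) against the mean level in FPKM (log axis) for 12644 analysed genes (grey), with 51 members coloured by class. Dotted lines mark 3/2 and 2/3, and 508 genes lie outside the vertical range; the changed members shown lie within the cloud of other genes.

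A list of 58 further genes of the pathway, fixed by name, was compared in the same way. Of these, 54 were listed and 44 were analysed, of which 5 were above 3/2 and 4 below 2/3 (20.5%, beside 17.8% of all genes), with a median log2 ratio of 0.02. The 5 include Eng, whose KO row also spans Ak1, and Tgif2, listed in KO only. The 4 include Inha, listed in WT only. These calls can reflect how rows were bounded or listed. Among the highest levels were those of genes that TGF-β is known to induce, Fn1 (fibronectin) at 2490 and 1700 FPKM and Thbs1 (thrombospondin, an activator of latent TGF-β) at 1294 and 1732 FPKM. Neither passed the limits. Chrdl1, a relative of chordin made by astrocytes, fell from 5.56 to 1.69 FPKM (ratio 0.304; interval, 0.226 to 0.404). Dcn, which encodes the TGF-β-binding proteoglycan decorin and is also in the fibroblast marker list, fell from 6.11 to 0.831 FPKM. Dand5, a nodal antagonist, fell from 4.37 to 2.80 FPKM (interval, 0.412 to 0.980).

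Bambi, a pseudoreceptor that blocks type I receptors, rose from 2.93 to 5.22 FPKM (ratio 1.78; interval, 1.44 to 2.22). Pcsk6, a proprotein convertase that matures ligands of the family, rose from 26.8 to 56.1 FPKM (ratio 2.10). Amhr2, the type II receptor of anti-Müllerian hormone, was at 0.354 and 2.15 FPKM on an estimated 6 and 37 fragments. Eng, which encodes the co-receptor endoglin, was listed at 41.2 and 163 FPKM, but its rows did not cover the same span. In WT the Eng row ran from 32502115 to 32538189 on chromosome 2 and Ak1 had a row of its own at 107 FPKM, whereas in KO the Eng row started at 32477278, the start of Ak1, and Ak1 was not listed. Ak1, Eng and Fpgs, which overlaps the end of Eng, summed to 158 and 163 FPKM, a ratio of 1.03. Tgif2 was listed in KO only (1.88 FPKM). Inha was listed in WT only (1.54 FPKM), and in KO the row of Obsl1 ran over its position.

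**Figure D5:**
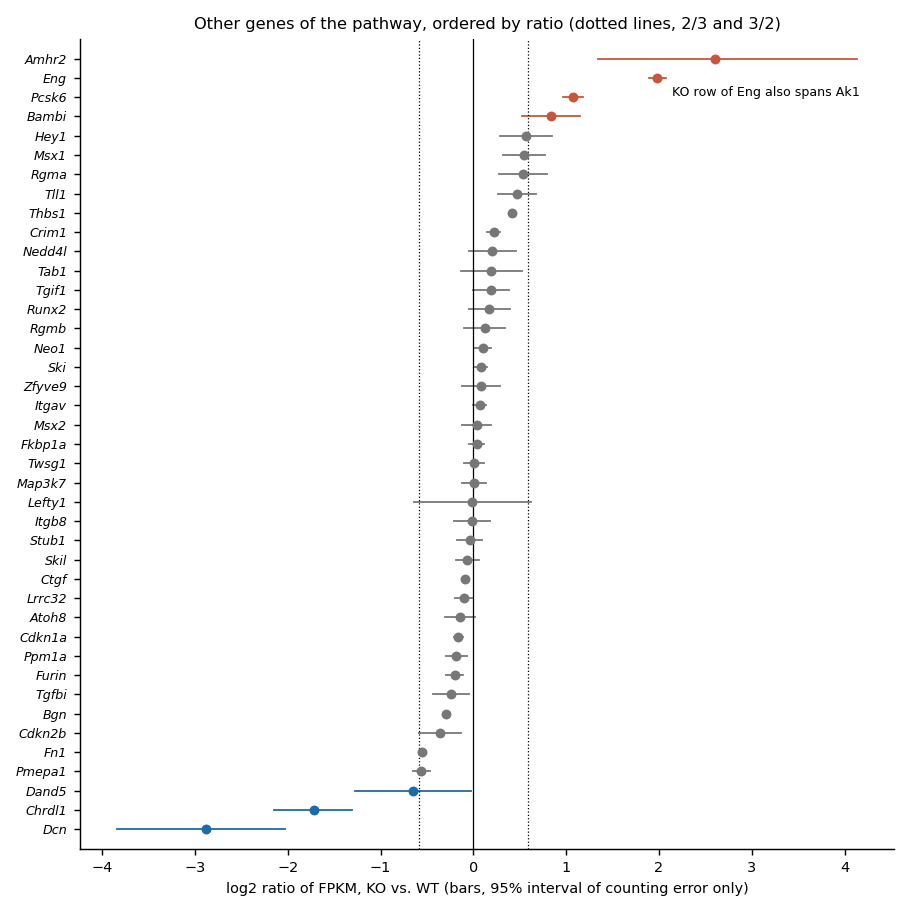
log2 ratio of KO vs. WT for 41 analysed genes of the further list that both tables gave (points), with 95% intervals of counting error (bars), ordered by ratio; red marks ratios above 3/2, blue those below 2/3. Dcn and Chrdl1 lie lowest, and Eng, whose KO row also spans Ak1, lies at a ratio of 3.95.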

How the data were processed

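RNA from cultured DG astrocytes was sequenced as 1 library per genotype. Per the labels and the paper's methods, the authors aligned paired reads of 100 bases to mm9 with TopHat 1.4.0 and estimated expression with Cufflinks, whose version is not given in the sources used here. The deposited tables give 1 FPKM value above 0 per gene, and no read counts. Depth per library was therefore estimated from genes below 0.15 FPKM with 1 annotated transcript longer than 1000 bases (GENCODE, NCBIM37). Depth and an allowance taken off the length (190 bases in WT, 140 in KO) were chosen together. The choice put the largest share of these genes within 5% of a small whole number of fragments. The shares reached, 70.7% and 70.8%, are therefore no check of the depth.

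The tables were joined by symbol, with the highest row kept for a repeated symbol, and 1 was added to each start. Analysis was limited to genes that reached 1 FPKM in either library. Ratios carry no pseudocount, and medians use log2 values with 0.1 FPKM added. The 95% intervals (Clopper-Pearson on estimated fragments of the longest transcript, centred on the FPKM ratio) cover counting error only. They leave out differences between cultures and in transcript length. The computation was tested on simulated counts drawn with the same transcript lengths and estimated depths. That test could not check the depths, the row bounds or differences between cultures. Upstream sequences came from RefSeq. Every analysed member was to be reported, with values for those past the limits, receptors, Smads, Id genes, Bmp2, Bmp4 and the 3 highest of each class. A few genes are not reported here by name but remain in the counts. The members and lists were chosen with earlier results of these data known. Alternatives varied the minimum, pseudocount, scaling, limits and handling of rows. Computation used scipy 1.17.1, pandas 2.3.3 and numpy 2.4.6 under Python 3.11.15, and plots matplotlib 3.10.9.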

Additional observations from a re-analysis of the deposited data

How the results depend on the processing

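Under 14 alternatives, the members above 3/2 numbered 3 and those below 2/3 numbered 4 except as follows. A minimum of 0.1 FPKM gave 4 higher and 9 lower members, one of 0.5 FPKM gave 5 lower, one of 5 FPKM gave 2, and no minimum gave 6 higher and 10 lower. A pseudocount of 1 FPKM left 2 lower members, Chrd and Gdf15, and 2 higher ones, Gdf6 and Grem1. Limits of 2 and 1/2 left 1 higher (Gdf6) and 1 lower (Chrd). Genes with the same row bounds held 2 higher and 3 lower. Scaling by the median ratio (ratio of Bmp4 0.663) or the upper quartile (0.661) added Bmp4 to the lower members, 5 in all. Of the other pathway genes (5 higher, 4 lower), 8 were higher at 0.1 FPKM, 3 higher and 2 lower at 5 FPKM, 10 and 7 with no minimum, 3 and 2 with 1 FPKM in both libraries, and 2 higher among genes with the same row bounds. The minimums change which genes enter. Members past the limits stayed a smaller share than all genes except with 1 FPKM in both libraries (13.5% and 11.8%) or with the same row bounds (17.9% and 13.8%). In the 12 alternatives that kept all genes of the sums, the summed antagonists stayed between 1.52 and 1.54 and the summed ligands between 0.810 and 0.823. The minimums and the limits do not change the values summed, so they could not move these ratios. The choice of genes did, and with Nbl1 the antagonist ratio was 1.08. With 1 library per genotype no library could be left out. No paired analysis was possible because each genotype has 1 library. Depth limits genes below about 1 FPKM, and the intervals hold no difference between cultures.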

Other observations

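The module genes differed in how their rows were bounded. Of the 52 analysed members, 28 had the same start and end in both tables, among them Gdf6, Gdf15, Inhbb, Tgfbr3 and Bmp4. The widest difference was that of Bmpr1b on chromosome 3, whose row ended at 141645215 in WT and at 141832141 in KO. The Bmp2 row on chromosome 2 had its start at 133377985 (WT) and 133378935 (KO). Among the 28 members with the same bounds, 2 were above 3/2 and 3 below 2/3 (17.9%, beside 13.8% of the 7338 genes so restricted).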
